A study of Mus musculus with 4 samples.

Results

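The cells described here are endothelial cells of the mouse ovary, 103 of the 6281 cells kept in the series (1.64%), of which 44 came from mice labelled 3 months and 59 from mice labelled 15 months. They were chosen by their own transcripts. A kept cell entered the set when Cdh5, Egfl7, Kdr and Cldn5 together had at least 4 unique molecular identifiers (UMIs, the counted transcript molecules) and when Cyp11a1, Hsd3b1 and Star, genes of steroid-producing cells, together had fewer than 10. Those 7 genes therefore describe the choice of cells and are not results. A kept cell had at least 500 genes, at least 1000 gene UMIs, at most 10% mitochondrial UMIs, and a leading hashtag with at least 10 counts and at least 3 times the second.

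All mice were virgin wild-type C57BL/6J mice, with no other allele and no agent named. Cells were sorted as CD45-positive and CD11b-positive, a gate for myeloid cells, and 3 hashtag pools of each age, meaning suspensions tagged with a barcoded antibody, were joined before 1 sort and 1 droplet library. Age and library thus cannot be told apart in any comparison below, and a p-value measures the spread between pools inside the libraries. The description of the series gives 2 mice for each pool, whereas the protocol gives harvest at 2 to 3 and 14 to 17 months, 6 young mice, and 5 old mice with 1 pool from a single animal that is not named.

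Endothelial cells line blood and lymphatic vessels. They are joined by junctions built on VE-cadherin (Cdh5) and claudin-5 (Cldn5), depend on vascular endothelial growth factor read by receptors such as Kdr and Flt1, and are known to take up class II antigen-presentation genes when exposed to interferon-gamma. In the ovary their vessels grow and regress with each follicle and corpus luteum. A gate for CD45 and CD11b is not expected to collect them, so their transcripts were first checked against those of leukocytes.

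At 3 months the pools contributed 8, 11 and 25 endothelial cells, which carried 74714, 165019 and 369566 UMIs. At 15 months they contributed 9, 32 and 18 cells, with totals of 102267, 591794 and 371167. Endothelial cells had a median of 9736 UMIs at 3 months and 14487 at 15 months, against 7623 and 7666 in all other kept cells. The libraries shared 3 cell barcodes, of which 2 were kept in both and 0 were endothelial. Chi-square over its degrees of freedom ran from 2.37 to 4.87 between endothelial pools of equal age, so no pool repeated another within sampling noise.

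Endothelial cells made up 1.10, 2.30 and 2.56% of kept cells in the 3-month pools, with 95% Wilson intervals of 0.560 to 2.16%, 1.29 to 4.06% and 1.74 to 3.75%. The 15-month pools held 1.17, 1.31 and 2.01%, with intervals of 0.619 to 2.21%, 0.932 to 1.85% and 1.27 to 3.15%. The intervals cover counting error only. The ages overlapped: the lowest pool was a 3-month pool and so was the highest. The younger pools averaged 1.99 ± 0.776% and the older ones 1.50 ± 0.448% (SD over 3 pools each), a difference of -0.488 percentage points (two-sided exact permutation test p = 0.4, where 3 against 3 pools cannot go below 0.1). Stromal fibroblasts, the other non-immune class compared here (at least 10 UMIs of Col1a1, Col1a2, Dcn and Pdgfra together, the same limit on steroidogenic genes, endothelial cells left out, 244 cells), made up 3.25 ± 0.546% and 4.22 ± 0.454% (exact permutation p = 0.1).

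**Figure D1:**
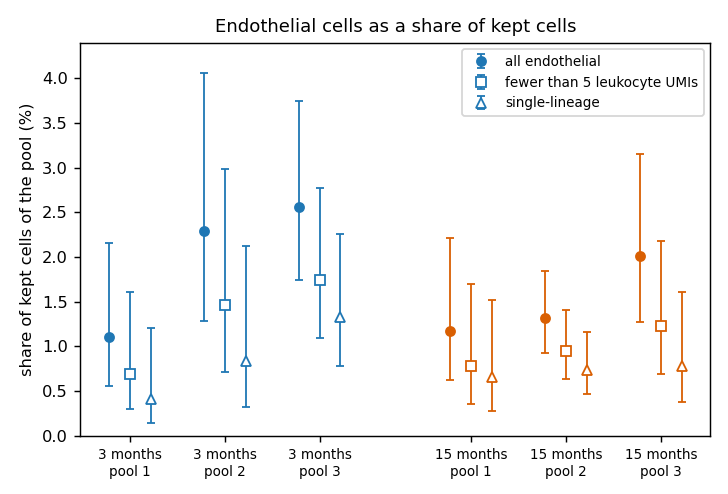
Share of kept cells that were endothelial in each hashtag pool (vertical axis, percent; bars are 95% Wilson intervals), for all endothelial cells, for those with fewer than 5 leukocyte UMIs and for single-lineage cells, blue for 3 months and orange for 15 months. The shares of all endothelial cells lay between 1.10 and 2.56% at 3 months and between 1.17 and 2.01% at 15 months, and the ages overlapped.

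In sums over pools, though not in every cell, the label held up against markers that the rule did not use. Of 20 pan-endothelial genes listed apart from the rule, all 20 had UMIs in endothelial cells, and their summed level was 4187 to 8448 CPM (the UMIs of a gene or list scaled to 1000000 gene UMIs of the pool) in the 6 endothelial pools, 353 to 538 in fibroblasts and 175 to 231 in all other kept cells. These levels are a description with no test, because the cells were selected on endothelial transcripts. Pecam1, the adhesion molecule CD31 at cell borders, was at 334 ± 131 CPM in endothelial pools and 18.9 ± 7.66 in all other cells (SD, n = 6 pools). Tie1, an orphan receptor of the angiopoietin pathway, was at 110 ± 54.5 and 0.303 ± 0.189, and its partner Tek, the angiopoietin receptor, at 126 ± 49.2 and 0.635 ± 0.185. Flt1, the decoy-type receptor for vascular endothelial growth factor, was at 409 ± 147 and 12.3 ± 7.10.

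Junction and surface proteins followed the same order. Esam, an endothelial adhesion molecule, was at 437 ± 148 CPM against 3.75 ± 2.73 in all other cells, and Emcn, a sialomucin of capillaries and veins, at 369 ± 178 against 2.19 ± 1.15. Ptprb, the phosphatase that restrains Tek, was at 412 ± 185 against 1.67 ± 1.61. The contrast was smaller for 2 members: Ramp2, a subunit of the adrenomedullin receptor, was at 635 ± 130 CPM in endothelial cells but also at 141 ± 67.1 in fibroblasts, and Cd93, which myeloid cells carry too, was at 366 ± 161 against 106 ± 19.7 in all other cells. After every cell was thinned to 1000 UMIs, Ramp2 was seen in 54.4% of endothelial cells, 12.7% of fibroblasts and 0.664% of all other cells, against 90.3%, 50.8% and 3.54% without thinning. Pecam1 was seen in 32.0%, 0.820% and 2.41% after thinning.

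**Figure D2:**
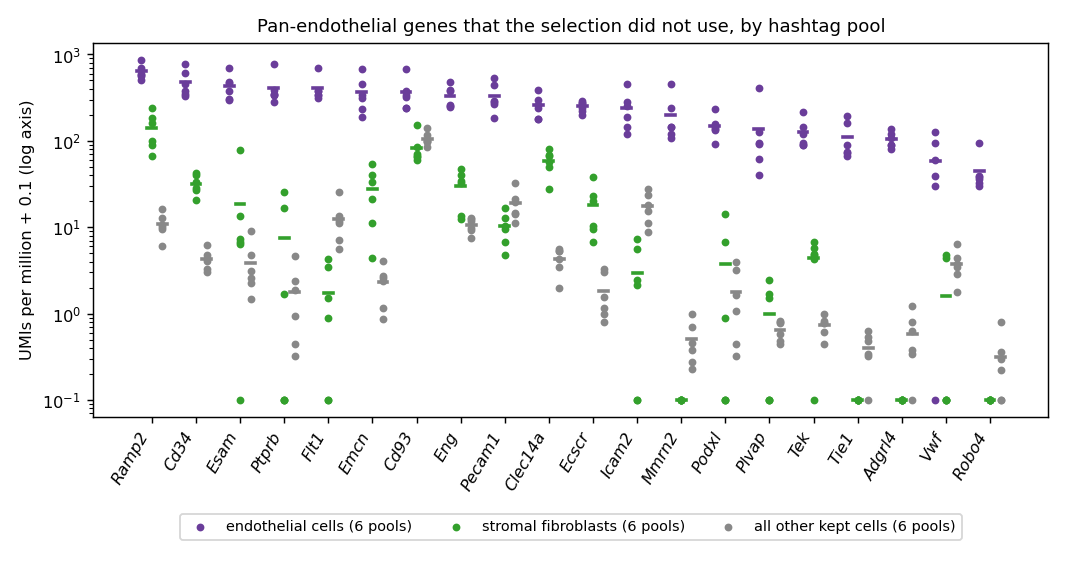
Level of each of 20 pan-endothelial genes outside the selection rule (vertical axis, CPM + 0.1, log axis) in the 6 hashtag pools, for endothelial cells (purple), stromal fibroblasts (green) and all other kept cells (grey), with bars at the means. Endothelial pools are the highest class for each gene in the mean, and Cd93 shows the smallest distance to the other cells, 366 against 106 CPM.

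Among genes with a mean of at least 100 CPM in endothelial cells, the 20 with the largest ratio to all other kept cells included 3 of the 4 rule genes, Cldn5, Egfl7 and Cdh5, and 6 of the listed pan-endothelial genes, Mmrn2, Tie1, Plvap, Ptprb, Adgrl4 and Tek. Sox18, a transcription factor of vascular development, was at 299 ± 118 CPM against 1.32 ± 1.03. Igfbp3, which binds insulin-like growth factors, was at 153 ± 79.1 against 0.152 ± 0.129. Ly6c1, a surface protein of mouse capillary endothelium, was at 655 ± 233 against 1.19 ± 0.549.

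The cells were not uniform. Of the 103, 34 carried at least 5 UMIs of 6 leukocyte genes (Ptprc, Tyrobp, Fcer1g, Laptm5, Coro1a and Cd52), 15 of 44 at 3 months and 19 of 59 at 15 months, with a median of 76 such UMIs. At least 10 UMIs of the fibroblast list were present in 21 cells and at least 10 UMIs of the pericyte and smooth muscle list in 21, with 15 cells in both. Hashtags remove doublets between pools but not within one, and no doublet caller was run on these cells. A further 1 cell, in 15-month pool 2, had 105226 UMIs and 9234 genes, entered on 4 UMIs of Kdr with 0 of Cdh5, Egfl7, Cldn5, Pecam1 and Tie1, and had 553 UMIs of Ovgp1, the oviduct glycoprotein, and 246 of Tmem212, a gene of ciliated cells. It supplied 17.8% of the endothelial UMIs of that pool. With 4 leukocyte UMIs it stayed in the set with fewer than 5, where the pool held 377914 UMIs with its 105226 among them. Values of 15-month pool 2 in that set include it unless stated.

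For that reason 3 nested sets were read side by side, all 103 cells, the 69 with fewer than 5 leukocyte UMIs (5, 7 and 17 in the 3-month pools, 6, 23 and 11 in the 15-month pools), and 50 single-lineage cells (3, 4 and 13, then 5, 18 and 7). Single-lineage cells had fewer than 5 leukocyte UMIs, fewer than 10 of the fibroblast list, fewer than 10 of the pericyte and smooth muscle list, and at most 100000 UMIs in all. The test over all 103 cells required 5 cells in a pool, and the tests of the other sets had no such minimum. Each leukocyte-low pool held at least 5 cells, whereas single-lineage pools went down to 3. The pan-endothelial genes of single-lineage cells summed to 8771 to 11856 CPM by pool. At the threshold of the rule, 7 cells with 4 marker UMIs had a median of 5 pan-endothelial and 8 leukocyte UMIs, and 13 cells just outside it with 3 marker UMIs had medians of 7 and 91. Some cells above the threshold also had few outside markers. In 3-month pool 3 a cell had 9 marker, 1 pan-endothelial and 163 leukocyte UMIs, and in 15-month pool 3 another had 5, 4 and 276.

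**Figure D3:**
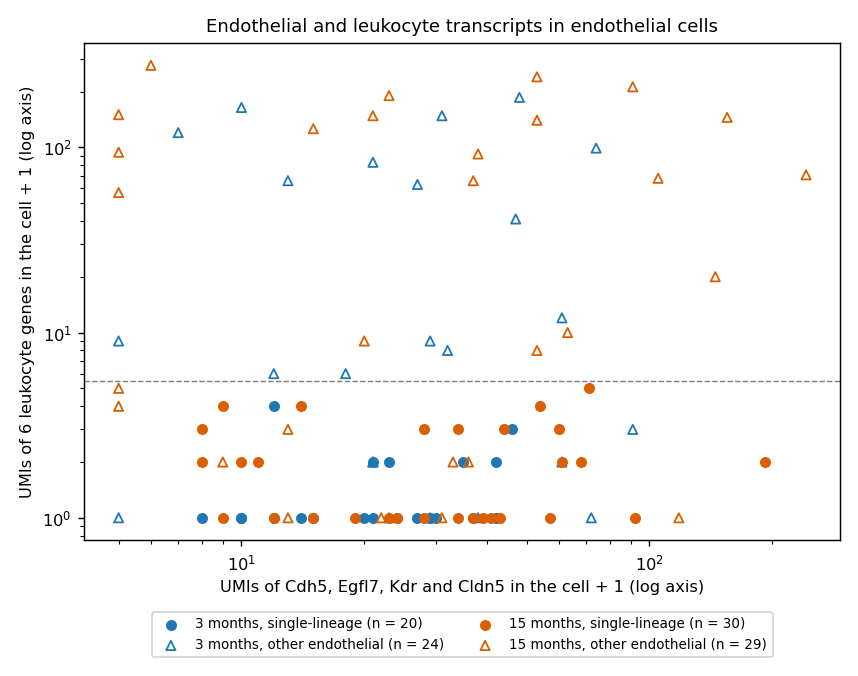
Each of the 103 endothelial cells by its UMIs of the 4 rule genes + 1 (horizontal, log axis) and of 6 leukocyte genes + 1 (vertical, log axis), blue for 3 months and orange for 15 months, filled circles for the 50 single-lineage cells and open triangles for the others. The dashed line marks the limit of 5 leukocyte UMIs, above which 34 cells of both ages lie.

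Genes of each vessel type were seen in a part of the cells. Nr2f2, a transcription factor of veins and lymphatics, was seen in 60 of 103 cells, and the arterial genes Sox17, Efnb2 (ephrin-B2) and Gja4 (connexin 37) in 54, 51 and 35. Ephb4, the venous receptor of ephrin-B2, was seen in 37 cells, Aplnr, the apelin receptor, in 39 and Vwf, von Willebrand factor, in 31. Car4, a capillary gene of other organs, was in 0 of 103 cells, which allows a share of up to 2.91% with a UMI. Ccl21a, the chemokine by which lymphatic vessels draw dendritic cells and T cells, was confined among these cells to 6, with 35 to 221 UMIs each. All 6 also had UMIs of Mmrn1, Reln and Flt4, further lymphatic genes. They came from 1 pool at each age, 3 from 3-month pool 2 and 3 from 15-month pool 3, and 5 of the 6 had at least 5 leukocyte UMIs, so that 1 remained in the leukocyte-low set. Near-identical Ccl21 copies make the assignment to Ccl21a uncertain, and 23 of 6178 other kept cells had a Ccl21a UMI as well.

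Age was compared on UMIs summed for each pool (edgeR quasi-likelihood test with Benjamini-Hochberg adjustment; log2 ratios are 15 months over 3 months and per-pool CPM are of all gene UMIs). Over all 103 cells, 3 of 4384 genes passed an adjusted p of 0.05 (0.0684%), 1 higher (0.0228%) and 2 lower (0.0456%), and 311 (7.09%) had an unadjusted p under 0.05. The lower genes were haemoglobins, products of red cells. Hbb-bs had 161, 194 and 273 CPM in the 3-month pools and 29.3, 8.45 and 18.9 in the 15-month pools. The ages did not overlap, and it fell by 3.82 ± 0.419 on the log2 scale (SE, adjusted p = 0.00399). Hba-a2 fell by 4.28 ± 0.619 (adjusted p = 0.0340).

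The same haemoglobin genes were lower in the rest of the library: Hbb-bs was at 4791, 1733 and 10721 CPM in all other kept cells at 3 months and 16.0, 134 and 16.9 at 15 months. The difference between the age effects in endothelial and in all other cells was 2.78 ± 1.71 on the log2 scale for Hbb-bs (adjusted p of 1). Gm42418, annotated as a lincRNA that overlaps a ribosomal RNA precursor gene and named after its values were seen, was at 5621, 5157 and 4765 CPM and then 24749, 13636 and 19180 (log2 ratio 1.91 ± 0.204, adjusted p = 0.0401). It also rose in all other kept cells (log2 ratio 1.61 ± 0.135, adjusted p = 0.00845). The part of free RNA in these 3 calls was not tested. Without the haemoglobin genes 0 genes passed, with 308 at an unadjusted p under 0.05, and DESeq2 called 12 genes with them.

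In the 69 leukocyte-low cells, 5 of 2558 genes passed (0.195%), 3 higher (0.117%) and 2 lower (0.0782%), and 168 (6.57%) had an unadjusted p under 0.05. Of the 5, 2 were MHC class II genes, Cd74 and H2-Ab1. The rest were Tagln, given further below, and Hbb-bs and Gm42418, which had also been called over all cells. Hbb-bs had a log2 ratio of -4.05 (edgeR adjusted p = 0.0165) and missed the threshold in 4 of 11 alternatives. Gm42418 passed in all 11 of its alternatives, with log2 ratios of 1.42 to 2.06. MHC class II molecules display peptides to CD4 T cells: H2-Aa and H2-Ab1 encode the chains of one such molecule, H2-Eb1 a chain of another, Cd74 the invariant chain that guides them, H2-DMa and H2-DMb1 the chains that exchange peptides, and Ciita the regulator of the whole set. Cd74 lies at chr18:60803848-60812652 on the plus strand, and H2-Ab1 (chr17:34257689-34269419), H2-Aa (chr17:34282744-34287823, minus strand) and H2-Eb1 (chr17:34305867-34316674) lie next to each other in the major histocompatibility complex (mm10, GENCODE M21).

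Cd74 had 0, 17.6 and 10.8 CPM in the leukocyte-low cells of the 3-month pools and 354, 251 and 619 in those of the 15-month pools. Every 15-month pool was above every 3-month pool, and the 0 UMIs of 3-month pool 1 allow up to 71.3 CPM. Cd74 rose by a log2 ratio of 5.10 ± 0.580 (adjusted p = 0.00439), a ratio of a gene with 4 UMIs at 3 months that depends on the prior count of the model. Over 11 alternatives within leukocyte-low cells its log2 ratio ran from 4.62 to 6.01 and its adjusted p from 5.47e-06 to 0.234. It missed the threshold in 1 of the 11, without 3-month pool 3 (log2 ratio 4.99, adjusted p = 0.234).

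H2-Ab1 had 23.8, 26.4 and 16.1 CPM and then 157, 156 and 201, again with no overlap, and rose by 3.08 ± 0.415 on the log2 scale (adjusted p = 0.0142). It missed the threshold without 3-month pool 2 (adjusted p = 0.0727), without 3-month pool 3 (0.268) or without 15-month pool 3 (0.0595). H2-Aa had 47.5, 26.4 and 21.5 CPM and then 157, 124 and 185 (log2 ratio 2.53 ± 0.428, adjusted p = 0.0506). H2-Eb1 had 23.8, 17.6 and 16.1 CPM and then 196, 87.3 and 120 (log2 ratio 2.74 ± 0.519, adjusted p = 0.107). These last 2 missed the threshold, and the ages did not overlap in either. Without the barcode of 105226 UMIs both passed (H2-Aa adjusted p = 0.0157 and H2-Eb1 adjusted p = 0.0307), among 9 of 2585 genes (0.348%), 6 higher (0.232%) and 3 lower (0.116%).

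Of the 8 listed class II genes, 4 were abundant enough to be tested in leukocyte-low cells. A log2 ratio above 0 was found in 4 of 4 (50.7% of all tested genes), and their median was 2.91 against 0.00971 for all tested genes. The ages did not overlap in 4 of 4 (12.9% of all tested genes did not). Testing needed enough UMIs in at least 1 age, so these 4 are not all members. The others stayed below the filter: H2-DMb1 had 0, 0 and 5.38 CPM and then 78.6, 58.2 and 48.9, H2-DMa 0, 0 and 5.38 and then 19.6, 21.2 and 43.5, and Ciita 0 in each 3-month pool and 0, 2.65 and 5.43 at 15 months. Ctss, the cathepsin that trims the invariant chain and is abundant in macrophages, had 0, 0 and 21.5 CPM and then 0, 13.2 and 0, so it did not separate the ages.

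**Figure D4:**
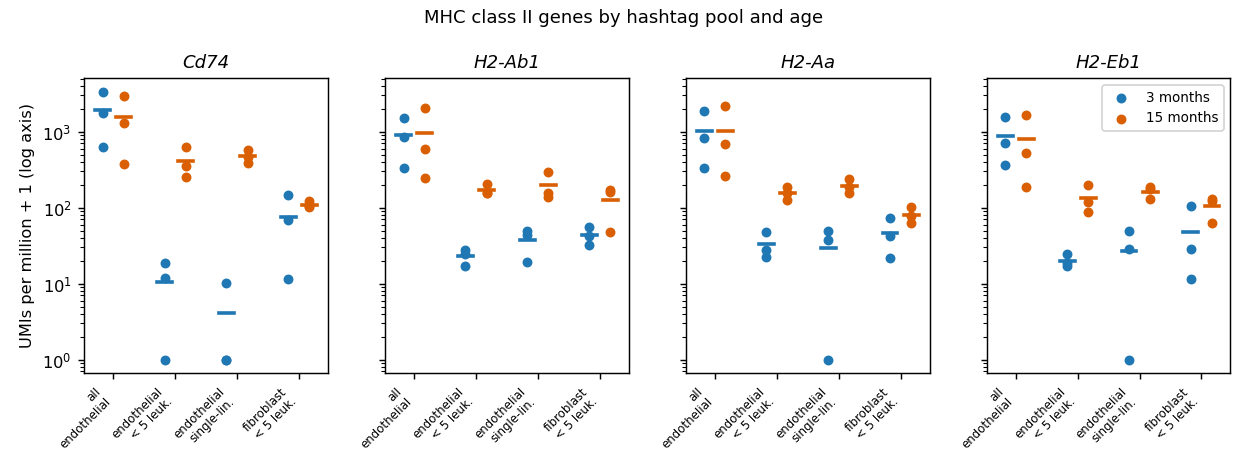
Level of 4 MHC class II genes (vertical axis, CPM + 1, log axis) in each of 3 pools of 3 months (blue) and 15 months (orange), with bars at the means, in all endothelial cells, endothelial cells with fewer than 5 leukocyte UMIs, single-lineage endothelial cells and fibroblasts with fewer than 5 leukocyte UMIs. The ages overlap for each gene in all endothelial cells and do not overlap in leukocyte-low endothelial cells, where Cd74 is at 0 to 17.6 CPM at 3 months and at 251 to 619 at 15 months.

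The promoters of 2 of these genes are shown to place the letters of one conserved class II control element, the Y box. The windows are RefSeq sequences on GRCm38.p6, 5′ to 3′ on the strand of the gene, from 250 bases before the transcript start to 50 after it. H2-Aa is at chr17:34287774-34288073 (minus) and H2-Eb1 at chr17:34305617-34305916 (plus). Capitals mark GATTGG, the letters of the Y box (an inverted CCAAT), and its reverse complement, searched on both strands.
H2-Aa: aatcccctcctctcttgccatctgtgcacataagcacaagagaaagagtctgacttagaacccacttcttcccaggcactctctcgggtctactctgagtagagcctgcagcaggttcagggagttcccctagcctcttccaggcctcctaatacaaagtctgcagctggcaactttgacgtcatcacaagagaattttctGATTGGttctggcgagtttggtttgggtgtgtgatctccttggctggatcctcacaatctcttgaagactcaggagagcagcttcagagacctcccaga
H2-Eb1: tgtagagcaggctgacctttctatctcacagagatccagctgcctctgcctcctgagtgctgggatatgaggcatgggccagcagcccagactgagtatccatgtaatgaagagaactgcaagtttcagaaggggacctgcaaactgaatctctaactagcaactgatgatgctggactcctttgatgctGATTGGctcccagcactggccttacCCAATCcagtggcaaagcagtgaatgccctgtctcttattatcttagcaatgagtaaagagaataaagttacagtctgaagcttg
The letters began 49 bases before the start in H2-Aa (-49) and at -60 in H2-Eb1, where they also occurred on the other strand at -35. Of all 32851 promoters of equal length in the RefSeq set, 16.1% held them. A match describes letters and no binding.

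Per cell, leaving out the barcode of 105226 UMIs, at least 1 UMI of Cd74, H2-Ab1, H2-Aa or H2-Eb1 was found in 12 of 29 leukocyte-low cells at 3 months and 32 of 39 at 15 months. With unthinned cells the same held for 22 of 36 and 66 of 83 leukocyte-low fibroblasts and for 40 of 62 and 90 of 105 remaining leukocyte-low cells. Median depths at 3 and 15 months were 8973 and 7408 UMIs in these endothelial cells, 6855.5 and 6651 in the fibroblasts, and 10539 and 10680 in the remaining cells. Thinned to 1000 UMIs the shares were 0, 14.3 and 11.8% in the 3-month pools and 50, 45.5 and 54.5% in the 15-month pools, 3 of 29 and 19 of 39 cells. Thinned shares in leukocyte-low fibroblasts, which are not professional antigen-presenting cells, were 25, 10 and 11.1% and then 40, 38.6 and 43.8%. In the remaining leukocyte-low cells they were 27.3, 17.6 and 17.6% and then 40, 30.8 and 50%. The ages did not overlap in any of the 3 classes. At 3 months the endothelial share, 10.3% over all pools, was below the 13.9% and 19.4% of the other classes, and at 15 months it was 48.7% against 39.8% and 34.3%.

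The summed level of the 4 genes over all such cells was 76.1 CPM at 3 months and 936 at 15 months in endothelial cells, 175 and 449 in leukocyte-low fibroblasts, and 191 and 378 in the remaining leukocyte-low cells. Single cells weighed heavily: 34 of the 44 class II UMIs of 15-month pool 1 were in 1 cell, and the highest cell held 38.8% and 36.2% in 15-month pools 2 and 3. The 15-month increase in Cd74 exceeded that in all other leukocyte-low cells by 3.88 ± 0.585 on the log2 scale (interaction of class and age, adjusted p = 0.0219). Against leukocyte-low fibroblasts the excess was 4.03 ± 0.842 and missed the threshold (adjusted p = 0.0913). For H2-Ab1 the excess over all other leukocyte-low cells was 1.89 ± 0.655 (adjusted p = 0.741), and it was not shown to differ.

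Leukocyte transcripts were set beside this result. In leukocyte-low endothelial cells the 10-gene leukocyte list summed to 238 to 532 CPM at 3 months and 373 to 491 at 15 months. Itgam and Cd53 were at 0, although 6 of the 10 genes defined the set. Srgn, outside those 6, was at 318, 281 and 520 CPM and then 451, 288 and 393 with the scaling of the fit. The 6 defining genes had 14 UMIs in 29 cells at 3 months and 41 in 40 cells at 15 months. Their median per cell was 0 and then 1, and their part in the class II rise was not tested. Ptprc, which encodes CD45, was at 0 in 5 of the 6 pools and at 5.29 CPM in 15-month pool 2. Macrophage genes summed to 594 to 758 and 439 to 1748 CPM. B cell genes were at 0 at 3 months and at 0 to 27.2 CPM at 15 months, with Cd79a, Cd79b and Ms4a1 at 0. Dendritic cell genes were at 21.5 to 44.1 and 27.2 to 118 CPM, with Xcr1, Clec9a, Cd209a and Ccr7 at 0.

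Cd74 in all other kept cells had 10422, 9482 and 13447 CPM and then 7460, 9624 and 9109. Lyz2, an abundant myeloid transcript, had 23.8, 35.3 and 64.5 CPM and then 58.9, 58.7 and 38.0 in leukocyte-low endothelial cells without the largest barcode. The ages overlapped for both genes on this scale. With the scaling of the fit they did not overlap for Cd74 in all other kept cells (log2 ratio -0.47 ± 0.157, adjusted p = 0.165). Lyz2 in leukocyte-low fibroblasts had 41.0, 41.7 and 31.3 CPM and then 116, 85.3 and 93.2, without overlap. In the same endothelial cells S100a9, a neutrophil gene, had 0 CPM in each 3-month pool and then 0, 14.7 and 10.9. The ages overlapped there for the macrophage genes C1qa and C1qb. The part of free myeloid RNA in the class II rise was not tested. Among the 19 endothelial cells of each age with 0 UMIs of the 6 leukocyte genes, the 4 class II genes summed to 112, 77.2 and 33.3 CPM in the 3-month pools and 897, 720 and 863 in the 15-month pools. The ages did not overlap there either.

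Over all 103 cells 0 of 7 measured class II genes passed, and 4 of 7 had a log2 ratio above 0. Cd74 had 629, 1745 and 3344 CPM at 3 months and 372, 2939 and 1301 at 15 months, and the ages overlapped (log2 ratio -0.29 ± 0.938, adjusted p = 0.993). H2-DMb1 had 13.4, 42.4 and 56.8 CPM and then 58.7, 137 and 91.6 (log2 ratio 1.22 ± 0.414, adjusted p = 0.513). It was the single one of those 7 genes whose ages did not overlap, near the share among all tested genes (13.3%). Of 3831 Cd74 UMIs, 3600 were in the cells with at least 5 leukocyte UMIs. In the 50 single-lineage cells Cd74 had 0, 0 and 9.25 CPM and then 391, 468 and 575 (log2 ratio 6.01 ± 0.609, adjusted p = 0.000106), and 11 of 796 tested genes passed (1.38%), 10 of them higher (1.26%) and 1 lower (0.126%). Shared with the 5 calls in leukocyte-low cells were 3 genes, Cd74, Hbb-bs and Gm42418.

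MHC class I, the set that displays peptides to CD8 T cells, moved in the same direction without passing the threshold in the larger sets. Over all cells 13 of 13 measured members had a log2 ratio above 0 (50.9% of all genes did), 0 passed, 7 had an unadjusted p under 0.05, all higher, 7 did not overlap between the ages (13.3% of all genes did not), and the median was 0.73 against 0.01 for all genes. In leukocyte-low cells 11 of 11 were above 0, 5 had an unadjusted p under 0.05, all higher (3.48% of all genes), and the median was 0.74. B2m, the light chain of class I, had 1379, 688 and 1242 CPM and then 2770, 1582 and 2086 there (log2 ratio 1.03 ± 0.277, adjusted p = 0.360). H2-K1, a heavy chain, had 832, 494 and 1049 and then 1670, 1066 and 1961 (adjusted p = 0.429).

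In single-lineage cells 3 of 7 measured class I genes rose, where 1.26% of all tested genes did. H2-K1 had 832, 1095 and 1166 CPM and then 1770, 1896 and 2894 (log2 ratio 1.21 ± 0.246, adjusted p = 0.0266). B2m (log2 ratio 0.91 ± 0.207, adjusted p = 0.0466) and H2-Q7, a non-classical heavy chain (1.90 ± 0.424, adjusted p = 0.0459), also passed. Reads of the H2-Q genes can be split among near-identical copies, so that value is uncertain. The age effect on H2-K1 over all 103 cells exceeded that in all other kept cells by 0.83 ± 0.234, which did not pass (adjusted p = 0.657). In leukocyte-low cells the difference was -0.18 ± 0.395 against all other cells and -0.17 ± 0.919 against fibroblasts for H2-K1, and for B2m it was -0.0234 ± 0.543 and 0.0589 ± 0.675 (adjusted p of 1 for each). B2m in all fibroblasts had a log2 ratio of 0.81 ± 0.235 (adjusted p = 0.199).

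Interferon-response genes leaned the same way. Over all cells 10 of 11 measured members had a log2 ratio above 0, 0 passed, 6 had an unadjusted p under 0.05, all higher (3.70% of all genes), and the median was 1.30. Leukocyte-low cells kept 6 measured members, 5 of them above 0, with 3 at an unadjusted p under 0.05 and a median of 0.55. Single-lineage cells kept 2, both above 0, with 0 at an unadjusted p under 0.05 and a median of 0.24. Iigp1, an interferon-inducible GTPase, had 47.5, 44.1 and 21.5 CPM and then 177, 101 and 185 in leukocyte-low cells (log2 ratio 2.17 ± 0.470, adjusted p = 0.162). The ages did not overlap, and the difference failed the adjustment. Its age effect in these cells exceeded that in leukocyte-low fibroblasts by 0.0429 ± 0.925 on the log2 scale. Over all other leukocyte-low cells the excess was 0.106 ± 1.90, and neither passed, so the rise was not shown to be particular to endothelial cells.

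Signalling genes of the vessel wall gave no call over all cells. Of the receptors, Nrp1, a co-receptor for vascular endothelial growth factor, had 388, 158 and 176 CPM and then 362, 382 and 356 (log2 ratio 0.74 ± 0.305, adjusted p = 0.649), and the ages overlapped because 3-month pool 1 was above all 3 pools of 15 months. Nrp1 rose in single-lineage cells, at 343, 253 and 185 CPM and then 506, 647 and 767 (1.60 ± 0.360, adjusted p = 0.0459). Timp3, an inhibitor of matrix proteases, rose there as well (1.49 ± 0.335, adjusted p = 0.0459) but had a log2 ratio of 0.01 over all cells. The 3 measured angiopoietin and Tie genes, Ptprb, Tek and Tie1, had ratios of 0.50, 0.49 and 0.26, and 0 of 4 measured Notch genes passed. Id1, a target of BMP signalling, had 214, 291 and 194 CPM and then 530, 325 and 440 in leukocyte-low cells (0.91 ± 0.305, adjusted p = 0.494).

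Genes of vessel identity and the basement membrane did not pass either. Of 20 pan-endothelial genes over all cells 13 had a log2 ratio above 0, with a median of 0.27, and the smallest unadjusted p belonged to Cd93 (0.73 ± 0.292, adjusted p = 0.638). Stmn2, listed with arterial genes, had 53.5, 84.8 and 141 CPM and then 9.78, 25.3 and 32.3, without overlap (-1.98 ± 0.423, adjusted p = 0.231). Of 15 measured basement membrane and matrix genes 9 had a ratio below 0 (median -0.19) and 3 an unadjusted p under 0.05, all lower (3.40% of all genes): Sparcl1, a matricellular protein, had 723, 600 and 655 CPM and then 401, 338 and 533 (-0.61 ± 0.222, adjusted p = 0.580). Col4a1, the chief collagen of basement membranes, had 1245, 1200 and 1090 CPM and then 802, 1022 and 741 (-0.43 ± 0.181, adjusted p = 0.656), and with fewer than 5 leukocyte UMIs its ages overlapped (-0.20).

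Stress genes divided. Of 12 measured heat shock genes 2 had a ratio above 0 over all cells (50.9% of all genes), 0 passed and 3 had an unadjusted p under 0.05, all lower (3.40% of all genes). Hspa8, a constitutive chaperone, had 1780, 1824 and 1973 CPM and then 1213, 1206 and 1202 (-0.61 ± 0.138, adjusted p = 0.241). Of 20 measured immediate early genes, which growth factors and stress induce quickly, 13 had a ratio above 0 over all cells and 16 in leukocyte-low cells (50.7% of all genes there), and 0 passed in either. Ier3 had 294, 242 and 227 CPM and then 948, 509 and 781 (1.57 ± 0.263, adjusted p = 0.0694) without overlap. Its age effect exceeded that in all other kept cells by 1.62 ± 0.319 (adjusted p = 0.0358). In leukocyte-low cells that difference was 0.48 ± 0.783 (adjusted p of 1), and of the 290 Ier3 UMIs of 15-month pool 3, 233 were in cells with at least 5 leukocyte UMIs. Jun had 1806, 1710 and 1630 CPM and then 4125, 2847 and 2314 in leukocyte-low cells (0.91 ± 0.201, adjusted p = 0.163).

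Metabolic and transport genes were mixed. Fabp5, a fatty acid-binding protein, had 187, 60.6 and 149 CPM over all cells and then 645, 857 and 275 (2.23 ± 0.523, adjusted p = 0.343), but its ratio was -0.15 in leukocyte-low cells, so its direction was not kept. Of 13 mitochondrially encoded genes 12 had a ratio above 0 over all cells (median 0.23) and 0 passed, and mt-Nd1, a subunit of complex I, had 1474, 1287 and 1151 CPM and then 1591, 2593 and 2727 in leukocyte-low cells (0.91 ± 0.210, adjusted p = 0.185). Of the cell cycle list 4 of 16 were measured, and Stmn1, a regulator of microtubules, had 294, 285 and 325 CPM and then 127, 221 and 132 (-0.84 ± 0.268, adjusted p = 0.489). The lists of senescence and p53 (8 of 16 measured), steroid hormone receptors (5 of 12), oxidative stress (11 of 14), vasoactive genes (8 of 13), coagulation (7 of 10), junctions (11 of 15), leukocyte adhesion (9 of 15) and endothelial transcription factors (18 of 21) had 0 members past the threshold over all cells.

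**Figure D5:**
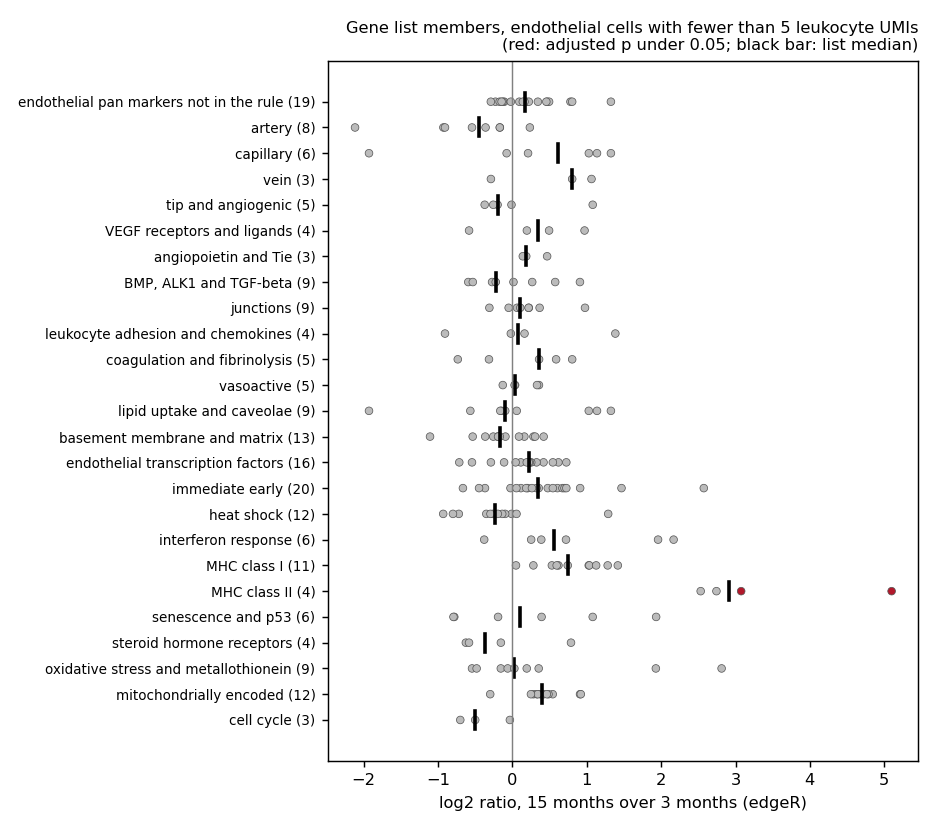
Log2 ratio of 15 months over 3 months for each tested member of the gene lists with at least 3 tested members, in endothelial cells with fewer than 5 leukocyte UMIs; the number tested is in brackets, black bars are list medians and red points have an adjusted p under 0.05. Marker lists of other cell types, which hold Tagln and the haemoglobins, are not drawn. Among the points drawn only Cd74 (5.10) and H2-Ab1 (3.08) are red, and the class II median of 2.91 stands furthest to the right.

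The last call in leukocyte-low cells was Tagln, an actin-binding protein of smooth muscle, with 761, 538 and 1533 CPM and then 157, 180 and 120 (-2.57 ± 0.421, adjusted p = 0.0463). Of its 476 UMIs 254 were in 1 cell. It was at 0 in all 3 single-lineage pools of 3 months. Tagln belongs to the pericyte and smooth muscle list that limited single-lineage cells, so that filter kept it low there at both ages. Pericyte and smooth muscle genes summed to 1593 to 4104 CPM at 3 months and 880 to 1336 at 15 months in leukocyte-low cells, and their part in this call was not tested. The call was lost without 3-month pool 1 (adjusted p = 0.0835) or 3-month pool 3 (0.268), without 15-month pool 1 (0.0624), pool 2 (0.0866) or pool 3 (0.181), and with the pool number as a block (0.0535).

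Against stromal fibroblasts, which share the libraries, the age effect over all endothelial cells differed for 0 of 6408 genes (0%) by the edgeR interaction test. Of them 237 had an unadjusted p under 0.05, and 6 genes were called when the filter admitted lower counts. On simulated counts this test recovered 6% of log2 differences of 1 and 43% of differences of 2. Its 0 calls therefore do not show equal age effects. Against all other kept cells the age effect differed for 4 of 11563 genes (0.0346%). Besides Ier3 these included Cxcl9, a chemokine induced by interferon-gamma, and the unnamed gene model AC167229.1. Cxcl9 had 0, 0 and 2 UMIs in the 3-month pools and 11, 19 and 75 in the 15-month pools (difference 6.93 ± 0.810, adjusted p = 0.000705), where they came from 1, 3 and 4 cells and 1 cell held 58. Cells with at least 5 leukocyte UMIs held 86 of its 107 UMIs, that cell among them, and leukocyte-low cells held 11, 1 and 9 in the 15-month pools and 0 at 3 months.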

How the data were processed

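The sources give gene and hashtag counts of droplet libraries from sorted ovarian cells. The authors made the deposited UMI counts with Cell Ranger, version 4.0.0 per the file headers and 7.0.0 per the submitters' processing notes, which also name FastQC 0.11.4 and mm10. The counts are not normalized. Of 31053 gene IDs, 35 symbols shared by several IDs were summed.

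Cells were kept and chosen by the limits given above, and raw UMIs were summed for each hashtag pool, 3 pools for each age. The main test was edgeR's quasi-likelihood test (robust, TMM factors, filterByExpr) with Benjamini-Hochberg adjustment over all tested genes, at an adjusted p of 0.05. Differences between classes were tested as an interaction of class and age. Printed levels are CPM of all gene UMIs of a pool, whereas log2 ratios, SEs and adjusted p-values come from the fits, which also apply the TMM factors. Shares were compared by an exact permutation test over pools, and intervals are Wilson intervals at 95%. In thinned comparisons each cell was reduced to 1000 UMIs. No doublet caller was run. The tests were tried on simulated counts: with 3959 genes a log2 change of 1 was recovered in 36.5% of changed genes and a change of 2 in 98.8% for all endothelial cells. For differences of the same sizes the interaction test recovered 6% and 43% against fibroblasts. Against all other kept cells it recovered 1% and 60%.

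The members and the gene lists were chosen with earlier results of these data known. Genes were named by rule: up to 10 rises and 10 falls past the threshold with at least 50 CPM, and the 3 members of each list with the smallest unadjusted p. Genes named outside it, among them the class II genes beyond the 3 of their list, were chosen after their values were seen. A few further genes are left out of the text but stay in all counts and medians. Alternatives changed the cell limits, the normalization, the low-count filter, the test (DESeq2) and the pools. Single-lineage cells, the set without the largest barcode, and all alternatives within leukocyte-low cells other than that set itself were added after the data were seen. Tools were R 4.3.3, edgeR 4.0.16, limma 3.58.1, DESeq2 1.42.0, Python 3.11.15, numpy 2.4.6, pandas 2.3.3, scipy 1.17.1 and matplotlib 3.10.9.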

Additional observations from a re-analysis of the deposited data

Results flagged for a closer look

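The age effect in endothelial cells differed from that in other cells of the libraries for genes that include those below, by the edgeR interaction test with Benjamini-Hochberg adjustment. Values are differences of log2 ratios, endothelial minus the other class. A value below 0 can come from a fall in endothelial cells, a rise in the other class, or both.

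Over all endothelial cells against all other kept cells, Cxcl9 differed by 6.93 ± 0.810 (SE, adjusted p = 0.000705), AC167229.1 by 2.98 ± 0.456 (adjusted p = 0.000705) and Ier3 by 1.62 ± 0.319 (adjusted p = 0.0358). Of the 107 Cxcl9 UMIs, 58 were in 1 cell, and 86 were in cells with at least 5 leukocyte UMIs, that cell among them. In leukocyte-low cells the difference for Ier3 was 0.48 ± 0.783 (adjusted p of 1). AC167229.1 had an age effect of 0.32 ± 0.442 in endothelial cells (adjusted p = 0.961) and of -2.69 ± 0.559 in all other kept cells (adjusted p = 0.0961).

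In leukocyte-low cells against all other leukocyte-low cells, Cd74 differed by 3.88 ± 0.585 (adjusted p = 0.0219), AC167229.1 by 3.05 ± 0.520 (adjusted p = 0.0334), Filip1l by -3.29 ± 0.567 (adjusted p = 0.0334), Lmod1 by -5.52 ± 0.955 (adjusted p = 0.0334) and Pde3a by -4.59 ± 0.819 (adjusted p = 0.0390). Of 22 Lmod1 UMIs in leukocyte-low endothelial cells 10 were in 1 cell, and of 41 Pde3a UMIs 16 were in 1 cell. Ovgp1 differed by 9.99 ± 1.07 (adjusted p = 0.00473), and all 1084 of its UMIs in endothelial cells came from 15-month pool 2, 553 of them from the barcode of 105226 UMIs. Basp1 differed by 6.35 ± 1.10 (adjusted p = 0.0334), and 75 of its 76 UMIs were in 1 cell.

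In leukocyte-low cells against leukocyte-low fibroblasts, 5 genes differed. Myh11 (-5.41 ± 0.708, adjusted p = 0.0108), Tpm2 (-3.16 ± 0.487, adjusted p = 0.0185) and Lmod1 (-5.71 ± 0.957, adjusted p = 0.0308) belong to smooth muscle and Rgs5 (-3.32 ± 0.589, adjusted p = 0.0416) to pericytes, and S100a6 (-3.49 ± 0.633, adjusted p = 0.0419) encodes a calcium-binding protein. In raw UMIs, Myh11 went from 1, 63 and 39 at 3 months to 2, 15 and 7 at 15 months in leukocyte-low endothelial cells. Over all fibroblasts it went from 1, 4 and 79 to 189, 178 and 218. Lmod1 went from 2, 4 and 13 to 1, 1 and 1 in those endothelial cells. Over all fibroblasts it went from 6, 3 and 17 to 46, 52 and 65. Raw UMIs are not scaled, and fibroblasts numbered 71 at 3 months and 173 at 15 months. The part of pericyte and smooth muscle transcripts in these differences was not tested. Of 127 Myh11 UMIs 59 were in 1 cell.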

How the results depend on the processing

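Age called 3 genes over all endothelial cells. The count was 5 in leukocyte-low cells, 11 in single-lineage cells, 1 with at least 6 marker UMIs, 19 with no limit on steroidogenic UMIs, 1 with at most 5% mitochondrial UMIs, 1 with stricter hashtags, 124 with every gene of at least 1 UMI, 12 with DESeq2, 0 without haemoglobin genes, 8 with pools of at least 10 cells, 2 with RLE size factors and 2 without the barcode of 105226 UMIs; leaving out 1 pool gave 0 to 7. In leukocyte-low cells (5 genes) it was 11 in single-lineage cells, 9 with DESeq2 and 9 without that barcode, and leaving out 1 pool gave 1 to 12 (3 and 1 without 3-month pools 2 and 3, 12 without 15-month pool 1). Against fibroblasts (0 genes) it was 6 with a minimum count of 3, 5 in leukocyte-low cells and 4 there without that barcode, and 0 to 12 without 1 pool. Against all other kept cells (4 genes) it was 19 with a minimum count of 3 and 7 in leukocyte-low cells, and 3 to 69 without 1 pool. The causes were not tested.

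With the pool number as a block 19 genes passed over all cells and 10 in leukocyte-low cells. Same-numbered pools had correlations of 0.152, 0.0387 and 0.0317, and pool 1 alone correlated best with its own number, so the pools share only a number.

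Some directions of genes named by the rule turned, none of them past the threshold unless stated. In leukocyte-low cells the log2 ratio became -0.91 for Cxcl12, -0.23 for Eng, -0.15 for Fabp5, -0.15 for Sgk1 and 5.10 for Cd74 (past it). In single-lineage cells it became -0.28 for Cxcl12, 0.12 for Sox17, -0.16 for Anxa2, 0.0672 for Ramp2 and 6.01 for Cd74 (past it). With no limit on steroidogenic UMIs Maf was at 0.00398 and Notch1 at -0.00663, and with pools of at least 10 cells Notch1 was at -0.0437 and Esam at -0.0852. Leaving out 1 pool gave -0.41 to 0.0782 for Sox17, -0.27 to 1.09 for Cpe, -1.06 to 0.0139 for Maf, -0.11 to 0.58 for Tie1, -0.00861 to 0.72 for Jag1, -0.19 to 0.39 for Notch1, -0.0448 to 0.57 for Esam, -1.17 to 0.40 for Cd74, -0.18 to 1.02 for Hmox1 and -0.0282 to 0.48 for Sod1. The interaction of Basp1 in leukocyte-low cells was -1.71 without the barcode of 105226 UMIs.

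The difference in share kept its sign in every alternative (-0.929 to -0.136 points).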
